A study of Mus musculus with 16 samples.

Results

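The 7 circRNAs described here, mmu_circ_0012885, mmu_circ_0016157, mmu_circ_0016160, mmu_circ_0005066, mmu_circ_0002523, mmu_circ_0008624 and mmu_circ_0008625, were chosen by their normalized counts, which were much higher in plasma extracellular vesicles (pEVs) of PS19 mice than in those of wild-type (WT) mice. They are 7 of 12658 circRNAs and of 15159 ncRNAs in the deposited table. The PS19 against WT difference chose them, so its size is a description and supports nothing. What was examined is how many PS19 mice carried the higher level, how far it rested on single libraries, and which entries had the same values.

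The study profiled small RNA in pEVs of 8 PS19 mice and 8 WT littermates, about 9.6 months old, with 1 library per mouse. PS19 mice are heterozygous for a human MAPT transgene with the P301S change, driven by the murine prion promoter, on a mixed B6;C3 background, and are used as a model of tauopathy. The pEVs were isolated from 200 µL plasma by a precipitation kit, and the RNA was sequenced from a single end. Both groups held males and females in equal number, but the labels do not give the sex of each mouse.

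CircRNAs are closed RNA rings formed when the end of an exon is joined back to the start of the same or an earlier exon. They have no free ends for exonucleases, are stable, are abundant in brain and are also found in vesicles and blood. Short reads can be assigned to a circRNA without crossing the joint that sets it apart from the linear RNA of the same gene, and whether the reads counted here crossed it is not given in the sources used here. Host genes, positions and sequences were not analysed here for any of the 7.

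The libraries held 66767724 to 107372555 assigned reads in PS19 and 36220722 to 117583663 in WT. tRNAs took 97.5% to 99.9% of the PS19 reads, and circRNAs took 0.0447% to 0.451% (median 0.320%). In WT, tRNAs took 90.8% to 99.6% and circRNAs 0.106% to 1.26% (median 0.141%). A normalized count is the number of reads divided by the DESeq2 size factor of the library, so that 1 read stood for 0.715 to 3.83 normalized counts in PS19 and for 0.389 to 1.54 in WT. The highest of these, 3.83, belonged to PS19 replicate 4.

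mmu_circ_0012885 was high in 3 PS19 libraries and within or a little above the WT range in the other 5. The normalized counts of PS19 replicates 1 to 8 were 595, 10.02, 307, 295, 0, 0, 9.19 and 3.63. In the WT libraries the lowest value was 0, the median 1.07 and the highest 4.05. Replicates 1, 3 and 4 stood far above every WT library, replicates 2 and 7 stood a little above, replicate 8 lay inside the WT range, and no read was seen in replicates 5 and 6. A count of 0 there allows up to 3 reads, which is 0.0384 ppm of the assigned reads in replicate 5 and 0.0279 in replicate 6. The reads behind the 3 high values were 405, 224 and 77, out of 736 in all PS19 libraries, against 14 in all WT libraries. The mean of the 8 PS19 libraries was 153 ± 224 (SD) and that of the 8 WT libraries 1.22 ± 1.40 (SD), so the SD in PS19 was larger than its mean. The median in PS19 was 9.604 and that in WT 1.07, whereas the ratio of the means was 125, and 73.0 without PS19 replicate 1.

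**Figure D1:**
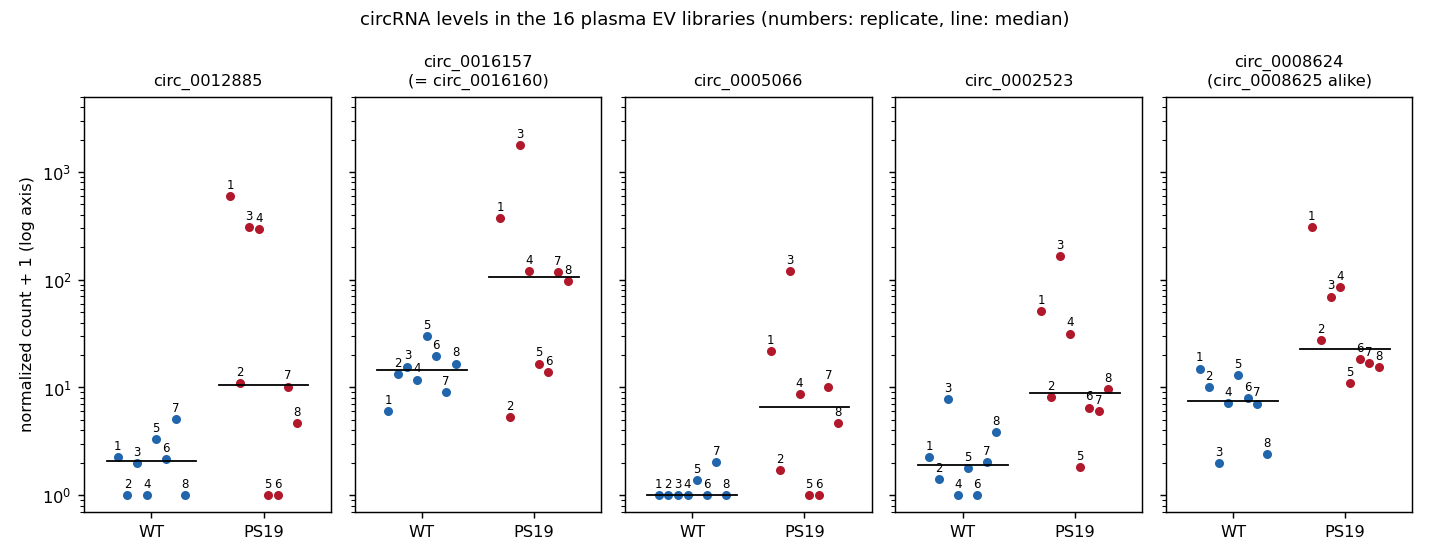
Normalized count plus 1 (log axis) of the circRNAs in each of the 8 WT and 8 PS19 libraries, with the replicate number at each point and a line at the group median. PS19 replicates 1, 3 and 4 are the highest points in 4 of the 5 panels, and in the panel of circ_0005066 replicate 7 takes the third place.

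mmu_circ_0016157 and mmu_circ_0016160 had the same value in 16 of 16 libraries and thus give 1 profile, not 2. The normalized counts of PS19 replicates 1 to 8 were 372, 4.29, 1780, 119, 15.7, 12.9, 116 and 95.9. Those of the WT libraries ran from 5.07 over a median of 13.5 to 29.2. PS19 replicate 3 was alone at the top, with 1298 of the 1892 PS19 reads, followed by replicate 1 and then by replicates 4, 7 and 8 at similar levels. Replicates 5 and 6 lay within the WT range, and replicate 2 lay below the lowest WT library. The PS19 mean of 314 ± 604 (SD, n = 8) was 22.01 times the WT mean of 14.3 ± 7.37 (SD, n = 8). Without PS19 replicate 3 the ratio of the means was 7.36.

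mmu_circ_0005066 was hardly detected in WT, where 2 reads were seen in all 8 libraries. The normalized counts of PS19 replicates 1 to 8 were 20.6, 0.715, 119, 7.67, 0, 0, 9.19 and 3.63. These values came from 14, 1, 87, 2, 0, 0, 11 and 5 reads, against at most 1 read in any WT library. The level thus rested on replicate 3, and in replicate 4 it rested on 2 reads only. Per assigned read, the PS19 libraries together held 69.2 times as many reads as the WT libraries (95% interval 18.8 to 578, exact, for counting error only and not for the spread between mice). Without PS19 replicate 3, which held 87 of the 120 PS19 reads, the ratio was 21.3 (95% interval 5.45 to 183).

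mmu_circ_0002523 had reads in every PS19 library. The normalized counts of PS19 replicates 1 to 8 were 49.96, 7.15, 165, 30.7, 0.825, 5.51, 5.01 and 8.72. Those of the WT libraries had a lowest value of 0, a median of 0.896 and a highest value of 6.83. Replicates 3, 1 and 4 again stood apart from the others, replicates 2 and 8 were just above the highest WT library, and replicates 5, 6 and 7 lay within the WT range. The PS19 mean was 34.1 ± 55.3 (SD, n = 8) against 1.64 ± 2.29 (SD, n = 8) for WT, and the ratio of 20.7 became 9.38 without PS19 replicate 3.

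mmu_circ_0008624 had reads in all 16 libraries. The normalized counts of PS19 replicates 1 to 8 were 304, 26.5, 68.6, 84.4, 9.91, 17.5, 15.9 and 14.5. The WT libraries had a lowest value of 0.976, a median of 6.56 and a highest value of 13.9. All PS19 libraries but replicate 5 were above the highest WT library, although replicates 6, 7 and 8 exceeded it by little. Means were 67.7 ± 99.5 (SD, n = 8) for PS19 and 7.08 ± 4.58 (SD, n = 8) for WT, and the ratio of 9.56 became 4.78 without PS19 replicate 1.

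mmu_circ_0008625 equalled mmu_circ_0008624 in 15 of 16 libraries, all but PS19 replicate 2, where it had 35 reads against 37. The 7 circRNAs thus held 5 profiles, or 6 when the difference of 2 reads is counted. No ncRNA outside the list had values identical to any of the 7 in all 16 libraries, whereas 4096 of the 15159 ncRNAs in the table had a row identical to that of another. Whether the equal rows are overlapping circRNAs or the same reads counted more than once cannot be told apart.

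The other pairs were alike without being equal. mmu_circ_0012885 and mmu_circ_0005066 had the same number of reads in 7 libraries, of which 5 had no read of either circRNA, while PS19 replicate 7 had 11 reads and replicate 8 had 5 reads of each. Over the 16 libraries, Pearson's r of the log2(normalized count + 1) values was 0.94 between mmu_circ_0016157 and mmu_circ_0005066, and 0.66 between mmu_circ_0016157 and mmu_circ_0008624. These values share the libraries and their scaling, and describe the profiles only.

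Of the 8 PS19 libraries, 5 were above the highest WT library for mmu_circ_0012885, mmu_circ_0016157, mmu_circ_0016160, mmu_circ_0005066 and mmu_circ_0002523, and 7 were for mmu_circ_0008624 and mmu_circ_0008625. At least 5 was reached by 1.7% of all circRNAs and at least 7 by 0.0632%, but the same contrast chose the 7 circRNAs and nothing can be read from this. The 5 libraries were not the same for each circRNA. Replicates 1, 3 and 4 were among them every time, replicate 2 for mmu_circ_0012885 and mmu_circ_0002523, replicate 7 for mmu_circ_0012885, the identical pair and mmu_circ_0005066, and replicate 8 for the identical pair, mmu_circ_0005066 and mmu_circ_0002523. Replicate 5 was above the highest WT library for none of the 7.

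The libraries above WT changed when each library was scaled by its assigned reads (in ppm) instead of the size factors. mmu_circ_0008624 and mmu_circ_0008625 then had 2 PS19 libraries above the highest WT library in place of 7. Their highest WT value on that scale was 0.607 ppm, in WT replicate 2, the library with the fewest assigned reads, and PS19 replicate 4 fell from the second to the sixth highest of the 16 libraries with 0.270 ppm. For mmu_circ_0016157 and mmu_circ_0016160, 4 PS19 libraries were above WT, and PS19 replicate 4, at 0.380 ppm, lay below the highest WT library at 0.997. For mmu_circ_0012885 the number stayed at 5, with 4.94, 3.32 and 0.944 ppm in PS19 replicates 1, 3 and 4 against at most 0.0798 in WT. For mmu_circ_0005066 and mmu_circ_0002523 it was 6. For mmu_circ_0005066 these included PS19 replicate 2 with 1 read (0.0150 ppm) and PS19 replicate 4 with 2 reads (0.0245 ppm). The highest WT library, replicate 5, also had 1 read (0.0133 ppm), so that number rests on very few reads. At least 4 PS19 libraries were above the highest WT library on this scale for 1.45% of all circRNAs, at least 5 for 0.356% and at least 6 for 0.0553%.

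Most of the counts lay in 1 or a few libraries. PS19 replicate 1 held 48.8% of the summed PS19 normalized counts of mmu_circ_0012885 and 56.2% of those of mmu_circ_0008624. PS19 replicate 3 held 70.8% of the sum for mmu_circ_0016157, 74.1% for mmu_circ_0005066 and 60.4% for mmu_circ_0002523. The 3 highest libraries together held between 84.4% for mmu_circ_0008624 and 98.1% for mmu_circ_0012885. Over the 1805 circRNAs whose mean normalized count reached 10, the highest PS19 library held a median of 30.5% of the PS19 sum, and it held more than 50% in 19.4% of them. By normalized count, PS19 replicates 1, 3 and 4 were the 3 highest of all 16 libraries for 6 of the 7 circRNAs. They were so for 6.37% of those 1805 circRNAs. In ppm of the assigned reads, PS19 replicate 4 ranked 3 for mmu_circ_0012885, and 5 for mmu_circ_0005066 and mmu_circ_0002523. It ranked 7 for mmu_circ_0016157 and mmu_circ_0016160, and 6 for mmu_circ_0008624 and mmu_circ_0008625.

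**Figure D2:**
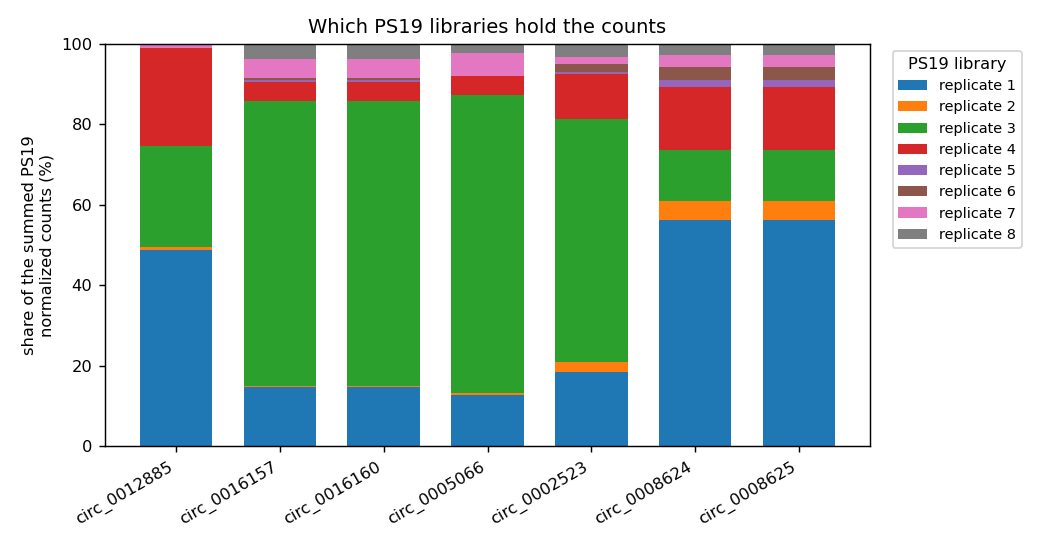
Share (%) of the summed PS19 normalized counts of each circRNA that each of the 8 PS19 libraries held, as stacked bars that add up to 100. Replicate 1 takes the largest share for circ_0012885, circ_0008624 and circ_0008625, and replicate 3 for the other 4.

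The fits were then repeated with each of the 16 libraries left out. With all libraries, limma gave a log2 difference between PS19 and WT of 3.42 (standard error 1.07) for mmu_circ_0012885, of 2.46 (standard error 0.82) for mmu_circ_0016157 and mmu_circ_0016160, and of 2.41 (standard error 0.77) for mmu_circ_0005066. It was 2.76 (standard error 0.73) for mmu_circ_0002523, 2.43 (standard error 0.64) for mmu_circ_0008624 and 2.42 (standard error 0.64) for mmu_circ_0008625. All 7 were below the raw threshold of 0.05, with a raw limma p from 0.000784 to 0.00598, as were 2.9% of all circRNAs on the side higher in PS19, and the limma p after Benjamini-Hochberg adjustment over all ncRNAs was 0.829 for each. These differences are on the log2(normalized count + 1) scale, which understates the change of low counts.

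No single library ended the raw limma call of any of the 7 circRNAs. Their log2 difference was lowest without PS19 replicate 1 for mmu_circ_0012885 (2.72), mmu_circ_0008624 (1.98) and mmu_circ_0008625 (1.97). It was lowest without PS19 replicate 3 for mmu_circ_0016157 and mmu_circ_0016160 (1.81), mmu_circ_0005066 (1.80) and mmu_circ_0002523 (2.25). Across these 16 fits the largest raw p of any member was 0.0169, for the identical pair without PS19 replicate 3, and the share of circRNAs called higher ran from 2.06% to 3.84%.

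DESeq2, which models the reads themselves, gave larger differences, which moved with PS19 replicates 1 and 3. With all libraries its log2 difference was 6.93 for mmu_circ_0012885, 6.30 for mmu_circ_0005066, 4.45 for the identical pair, 4.42 for mmu_circ_0002523 and 3.23 for mmu_circ_0008624 and for mmu_circ_0008625. The 7 circRNAs had the 7 smallest DESeq2 p-values of the 7628 circRNAs that were higher in PS19, and all 7 had an adjusted p under 0.05, as did 0.719% of all circRNAs. At the raw threshold 4.09% of circRNAs were called higher. In limma the 7 circRNAs ranked between 5 and 42 of 6520. The same difference chose the 7 circRNAs, so these ranks and calls are a description and support nothing. Without PS19 replicate 1, DESeq2 gave 2 of the 7 an adjusted p under 0.05, namely mmu_circ_0012885 (DESeq2 adjusted p = 0.00287) and mmu_circ_0002523 (DESeq2 adjusted p = 0.0123), and 0.0559% of all circRNAs.

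In that fit mmu_circ_0002523 hardly moved, at 4.40, while the identical pair and mmu_circ_0005066 moved most. The log2 difference of the identical pair fell from 4.45 to 1.92 and that of mmu_circ_0005066 from 6.30 to 3.51, whereas mmu_circ_0012885 went from 6.93 to 6.18 and mmu_circ_0008624 from 3.23 to 2.20. With replicate 1 absent, DESeq2 treated the replicate 3 count of these 3 circRNAs as outlying and replaced it, which it did for no member count with all 16 libraries present. The DESeq2 adjusted p was 0.111 for the identical pair and 0.0573 for mmu_circ_0008624 and mmu_circ_0008625, and DESeq2 gave none for mmu_circ_0005066. Without PS19 replicate 3 itself, 6 of the 7 had a DESeq2 adjusted p under 0.05, and mmu_circ_0005066 was again given none. In that fit 0.656% of all circRNAs were higher in PS19 with an adjusted p under 0.05. The log2 difference there was 2.86 for the identical pair, 4.51 for mmu_circ_0005066 and 3.26 for mmu_circ_0002523, the lowest of its 16 DESeq2 fits without 1 library, while mmu_circ_0012885 was at 6.70.

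**Figure D3:**
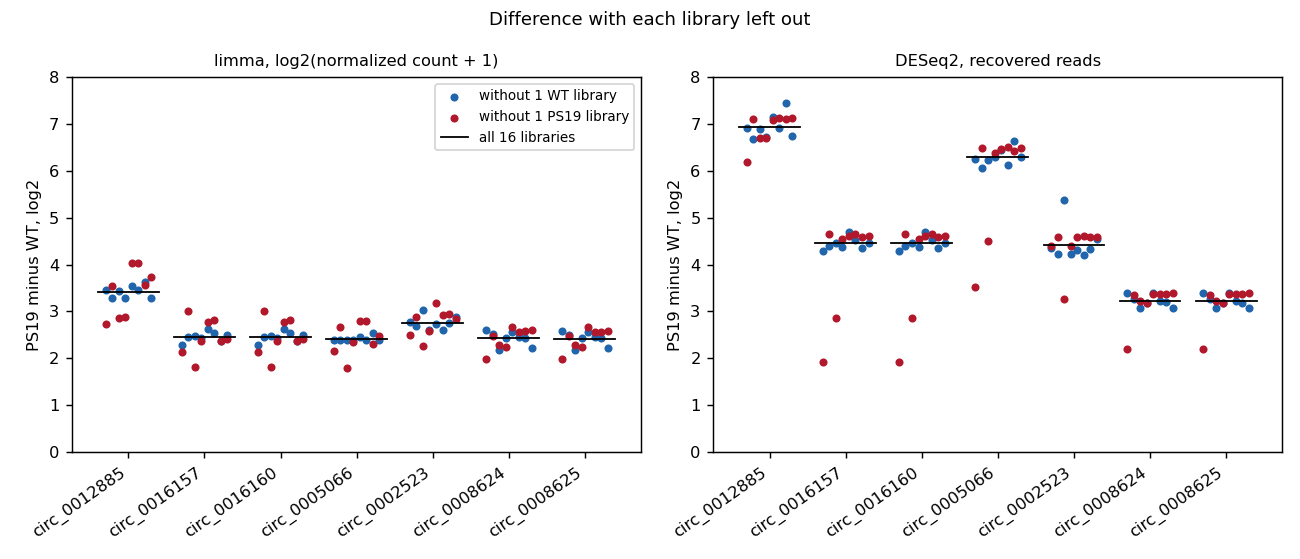
Log2 difference between PS19 and WT of each circRNA from limma (left) and DESeq2 (right), with 1 point for each fit that left out 1 PS19 or 1 WT library and a line for the fit with all 16 libraries. The limma points lie between 1.80 and 4.04, whereas in DESeq2 circ_0016157 falls to 1.92 and circ_0005066 to 3.51 without PS19 replicate 1, and circ_0002523 to 3.26 without PS19 replicate 3.

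PS19 replicates 1, 3 and 4 also stood apart from the other libraries in other measures. They had the 3 lowest miRNA shares of the 16 libraries, 0.0869%, 0.246% and 0.0645% of the assigned reads, against 0.289% to 7.51% in the other 13. The normalized counts of 4 miRNAs that are abundant in erythrocytes (mmu-miR-451a, mmu-miR-144-3p, mmu-miR-486a-5p and mmu-miR-16-5p) summed to 5348, 5261 and 1952 in them, below the lowest of the other libraries at 17302. This sum ran from 1952 to 44873 in PS19 and from 17302 to 94866 in WT. Of the 4 miRNAs, 3 had reads in every library while mmu-miR-144-3p was at 0 in at least 1. mmu-miR-486a-5p reached 90551, against at most 7135, 360 and 27.1 for mmu-miR-451a, mmu-miR-16-5p and mmu-miR-144-3p. The 4 miRNAs are part of the miRNA reads, so their sum is not separate from the miRNA share.

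The miRNAs of other cell types moved less clearly with the 3 libraries. The sum of mmu-miR-122-5p and mmu-miR-192-5p, enriched in liver, ran from 8373 to 211497 in PS19 and from 26450 to 385899 in WT, and its lowest values were in replicates 3 and 1 but not in replicate 4. The sum of 3 miRNAs enriched in neurons (mmu-miR-124-3p, mmu-miR-9-5p and mmu-miR-128-3p) ran from 981 to 10017 in PS19 and from 2206 to 10415 in WT, with replicate 3 lowest and replicate 4 second highest of all. Endothelial mmu-miR-126a-3p ran from 507 to 2201 and from 1421 to 3225, lowest in replicates 1 and 4, and mmu-miR-223-3p of myeloid cells and platelets from 17.3 to 195 and from 9.95 to 79.9, highest in replicate 3. All markers in these lists had reads in every library. The part of these contents in the levels of the 7 circRNAs was not tested, and in bulk pEV RNA fewer vesicles of a type and less RNA per vesicle cannot be told apart.

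**Figure D4:**
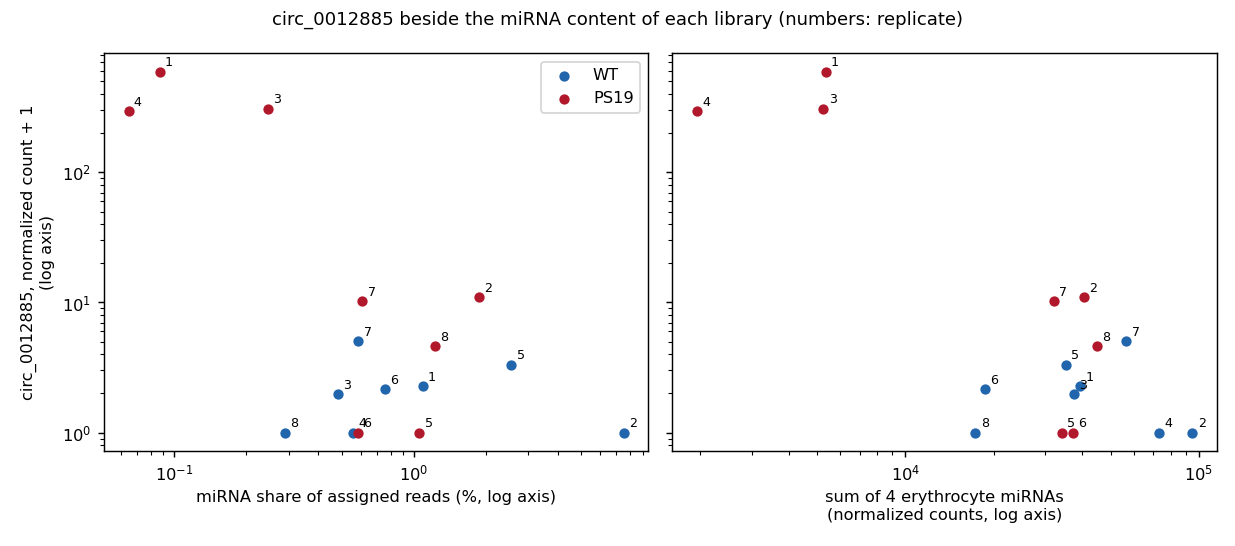
Normalized count plus 1 of circ_0012885 (log axis) against the miRNA share of the assigned reads (left, %, log axis) and against the summed normalized counts of 4 erythrocyte miRNAs (right, log axis) in each library, with replicate numbers. PS19 replicates 1, 3 and 4 lie alone at the upper left of both panels, with miRNA shares of at most 0.246% and sums of at most 5348.

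With the log2 miRNA share as covariate over all 16 libraries, the limma log2 difference was 2.26 for mmu_circ_0012885 and 1.83 for the identical pair. It was 1.88 for mmu_circ_0005066, 2.10 for mmu_circ_0002523, 2.13 for mmu_circ_0008624 and 2.12 for mmu_circ_0008625. All 7 had a raw limma p under 0.05, as did 2.6% of all circRNAs on the higher side. With the 3 libraries of lowest miRNA share left out, an alternative chosen after the values were seen, 4 of the 7 did, against 2.66% of all circRNAs. These 3 libraries had the highest normalized counts for 6 of the 7, and 3 of the 4 highest for mmu_circ_0005066. Leaving them out thus lowers the difference by construction. Here mmu_circ_0012885 had a log2 difference of 0.89 (standard error 0.71) and the identical pair of 0.96 (standard error 0.65), with a raw limma p of 0.226 and 0.153. The 4 below the threshold were mmu_circ_0002523 (1.44), mmu_circ_0008624 (1.36), mmu_circ_0008625 (1.35) and mmu_circ_0005066 (1.08).

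In the 5 PS19 libraries that remained, mmu_circ_0012885 had 4.57 ± 4.84 normalized counts (SD, n = 5), against 1.22 in the 8 WT libraries. mmu_circ_0008624 had 16.9 ± 6.07 (SD, n = 5), with 4 of the 5 libraries above the highest WT library. For mmu_circ_0016157 the value was 49.0 ± 52.7 (SD, n = 5), since replicates 7 and 8 were high and the other 3 were not. Without the 3 libraries, 5 of the 7 were below the raw threshold in DESeq2, as were 2.14% of all circRNAs on the higher side, and 0 were below 0.05 after adjustment, where 4 circRNAs, or 0.0325%, remained.

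The library names carry a letter, which is the same for all PS19 libraries but for only 2 of the WT libraries, replicates 2 and 4. What the letter marks is not given in the sources used here. Within these 10 libraries the log2 difference remained above 2 for all 7 circRNAs, at 4.34 for mmu_circ_0012885 and 3.56 for mmu_circ_0002523, which had a raw limma p of 0.0211 and 0.00721. The other 5 missed the threshold, with a raw limma p of 0.0633 to 0.0726, and 0.63% of all circRNAs were called higher.

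Entries outside the list followed the same libraries. Among 8181 other ncRNAs whose mean normalized count reached 1, taken once per set of identical rows, 84 had a Pearson's r over 0.8 with mmu_circ_0012885 on the log2 scale over the 16 libraries. The number was 100 for mmu_circ_0016157, 98 for mmu_circ_0005066, 50 for mmu_circ_0002523, 24 for mmu_circ_0008624 and 26 for mmu_circ_0008625. Most were circRNAs, but 11 of the 84 and 11 of the 100 were tRNAs. Members and entries share libraries, scaling and depth, so these values carry no test. For each neighbour named below, Spearman's rank correlation was lower than Pearson's r. It ran from 0.618 (circ_0016376 with mmu_circ_0012885) to 0.917 (mir-5112 with mmu_circ_0016157).

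The entry most like mmu_circ_0012885 was circ_0016376 (r = 0.924), with 50, 79 and 10 reads in PS19 replicates 1, 3 and 4 and 6 reads in all WT libraries. It was followed by the hairpin entry of miR-5124a (r = 0.910) and by circ_0012399 (r = 0.910), which had 19 and 11 reads in all 16 libraries. The hairpin had 7, 10 and 1 reads in PS19 replicates 1, 3 and 4, and the mature miRNA had 3, 11 and 1 reads in them and none elsewhere. miR-5124a is encoded at chr13:40865791-40865862 on the plus strand (GRCm38.p6), inside an intron of Gcnt2, which encodes a glycosyltransferase. Its mature sequence at chr13:40865801-40865820 (RefSeq) is shown because it is a member's neighbour with an RNA of known sequence, with the seed in capitals:
mmu-miR-5124a: gGUCCAGUgacuaagagcau

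The neighbours of mmu_circ_0016157 and mmu_circ_0005066 all had their most reads in PS19 replicate 3. The hairpin entry of mir-5112 (r = 0.960 with mmu_circ_0016157) had 627 of its 726 reads in PS19 replicate 3. Next came circ_0005019 (r = 0.949), with 5718 of 6316 reads there, and circ_0005021 (r = 0.939), with 5701 of 6254. For mmu_circ_0005066 the nearest were circ_0011099 (r = 0.948), with 13473 of 14512 reads in that library, circ_0002252 (r = 0.945), with 32 of 52, and circ_0005019 (r = 0.944).

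The neighbours of the other members were less close. mmu_circ_0002523 was followed by circ_0003189 (r = 0.886), circ_0006887 (r = 0.882) and circ_0000481 (r = 0.872), the last with 98 of its 115 reads in PS19 replicate 3. mmu_circ_0008624 was followed by circ_0004150 (r = 0.870), circ_0013005 (r = 0.860) and circ_0003220 (r = 0.858). circ_0004150 had 123, 87 and 27 reads in PS19 replicates 1, 3 and 4 and up to 58 in a WT library.

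**Figure D5:**
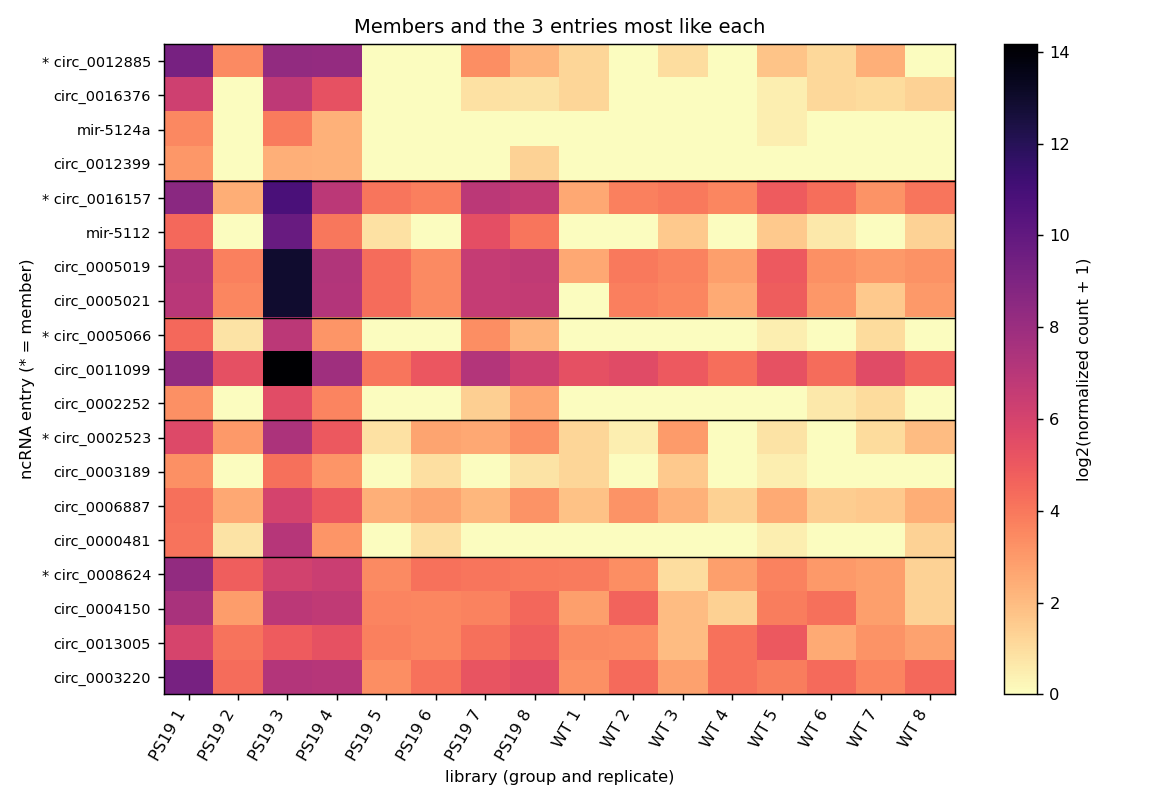
Colour scale of log2(normalized count + 1) in the 16 libraries for the 5 distinct profiles (marked *) and, below each, the 3 entries with the highest Pearson's r, each entry drawn once. The columns of PS19 replicates 1, 3 and 4 are the darkest in most rows, and circ_0011099 in PS19 replicate 3 is the highest value.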

How the data were processed

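The authors aligned the single-end small RNA reads with STAR 2.5.3a, assigned them to ncRNAs with COMPSRA, and deposited for each ncRNA the signal of every library, the count divided by its DESeq2 (1.42.1) size factor. The build in the submitters' processing notes is mm10. The deposited mean, log2 fold change, standard error, Wald statistic, p-value and adjusted p-value are the authors' own comparison and were not used. In every library the smallest positive value was taken as 1 read, and 100% of values were then whole reads within 1e-06.

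limma 3.58.1 (lmFit, eBayes with a trend, two-sided) was run on log2(normalized count + 1) over all 15159 ncRNAs, because the deposited values are not counts, at a raw p of 0.05 with Benjamini-Hochberg adjustment beside it. DESeq2 1.42.0 and edgeR 4.0.16 (quasi-likelihood) were run on the recovered reads in R 4.3.3, and Python 3.11.15 with pandas 2.3.3 was used for the rest. The tests were also run on simulated counts with a known change. These counts had no outlying libraries and no effect shared by a library, so they do not show how the tests behave here. The other alternatives were library totals or miRNA-only size factors for the scaling, a mean of at least 10, a pseudocount of 0.1, a replicate block, libraries with 1 name letter, 1 ncRNA per identical set, the miRNA share as covariate, and each library left out. DESeq2 with each library left out, the fits without the 3 libraries of lowest miRNA share and the count on ppm of the assigned reads were added after seeing the data.

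The entries named are the 7 circRNAs and, for each distinct profile, the 3 other ncRNAs with the highest Pearson's r over the 16 libraries (mean normalized count of at least 1, 1 per identical set). The members and lists were chosen with earlier results of these data known. A count of 0 was taken to allow 3 reads, and PCR copies cannot be told from molecules, so intervals and floors cover counting error only. RefSeq held the mature sequence printed here.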

Additional observations from a re-analysis of the deposited data

Results flagged for a closer look

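In each group of 8 libraries, the gap between the most extreme library and its nearest neighbour was set against the whole range (Dixon's ratio at its 95% critical value). This was done for 22 groups, made of the 7 circRNAs and 4 library measures in each genotype, and 10 passed. Chance passes about 1 in 20 groups of normally distributed values. These counts are skewed, the equal rows are not separate, and the PS19 values chose the circRNAs, so nothing is read from the number that passed.

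PS19 replicate 3 stood alone for mmu_circ_0016157 and mmu_circ_0016160 (1780 normalized counts), mmu_circ_0005066 (119) and mmu_circ_0002523 (165). PS19 replicate 1 stood alone for mmu_circ_0008624 and mmu_circ_0008625 (304). The PS19 values of mmu_circ_0012885 did not pass, since 3 libraries shared the high level. In WT, replicate 7 stood alone for mmu_circ_0005066 with 1.01 normalized counts, which was 1 read, and replicate 3 for mmu_circ_0002523 with 6.83, which was 7 reads. Among the library measures, WT replicate 2 stood alone with a miRNA share of 7.51%, and PS19 replicate 6 with 107372555 assigned reads. No cause was tested for any of these values.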

How the results depend on the processing

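All 7 circRNAs were higher in PS19 in every fit. The number with a raw p under 0.05 was 7 (6 with 1 ncRNA per identical set) under each other scaling, filter, pseudocount, covariate, block and count test, 2 among the libraries with the letter of the PS19 names, and 7 in each of the 16 limma fits and 16 DESeq2 fits without 1 library. It was 4 with the 3 libraries of lowest miRNA share left out, and 5 with DESeq2 there. In ppm of the assigned reads, the PS19 libraries above the highest WT library fell from 7 to 2 for mmu_circ_0008624 and mmu_circ_0008625. Over all ncRNAs, limma called 735, against 2295 with edgeR, 440 with library totals, 230 with a mean of at least 10, and 567 to 846 without 1 library. None of the 735 passed adjustment, whereas 113 did with DESeq2 and 318 with edgeR. The share of called circRNAs that were higher in PS19 was 65.1%, and it was 41.0% with library totals, 87.5% with miRNA-only factors, 78.8% with DESeq2, 54.4% with edgeR, 85.2% with a mean of at least 10, 52.6% with the miRNA covariate and 16.2% with the name letter. Library totals put the median log2 difference of all ncRNAs at -0.11 and miRNA-only factors at 0.18, and mmu_circ_0012885 was then at 3.20 and 3.92. The cause of these shifts was not tested. The difference of medians was 1.54 to 2.88 on the log2 scale for the 7 circRNAs.

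Whether the replicate numbers pair the mice is not given in the sources used here, and the values cannot settle it. The correlation of deviations within a number was -0.181 to 0.474. It was over 0.1 for 2 of 8 numbers, and own number was best for 1. With a replicate block, 685 ncRNAs were called, and all 7 circRNAs kept their raw call. Depth limits the members most at low counts, since mmu_circ_0005066 had 122 reads in all 16 libraries and at most 1 read in any WT library.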

Other observations

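DESeq2 replaced outlying counts unevenly over the libraries. With all 16 libraries it replaced 166 circRNA counts in PS19 replicate 3, 114 in WT replicate 5, 73 in PS19 replicate 1 and 68 in WT replicate 2, and between 1 and 44 in each of the others. The counts of mir-5112, circ_0005019, circ_0005021, circ_0011099 and circ_0000481 in PS19 replicate 3 were among those replaced, whereas those of mmu_circ_0016157 and mmu_circ_0005066 in the same library were kept. With these counts kept, mmu_circ_0016157 had a DESeq2 log2 difference of 4.45, and circ_0011099, with its count replaced, had 1.78. PS19 replicate 3 also held the highest value of the 16 libraries for 335 of the 1805 circRNAs whose mean normalized count reached 10, or 18.6%, and PS19 replicate 1 for 189.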
